A study of Mus musculus with 23 samples.

Results

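The comparison described here is between female and male *Fndc5* knockout (KO) mice that had both been fed a low-calcium diet. *Fndc5* encodes the membrane protein from which irisin, a factor released by exercised muscle, is cut, and the study asked whether bone lacking it meets a shortage of calcium differently in the 2 sexes. Total RNA was sequenced from bone chips enriched in osteocytes, the cells buried in the mineralized matrix. The KO females were mice 5 and 6 and the KO males were mice 12, 29 and 31, all C57BL/6 by the labels (C57BL/6J in the study's methods), 5 months old and kept for 2 weeks on chow with 0.01% calcium. All 5 carried a global deletion that removes part of *Fndc5* in every tissue, so no cell type was targeted. The other 18 of the 23 mice were KO mice on a control diet with 0.6% calcium (3 females, 3 males), wildtype (WT) mice on the low-calcium diet (3 females, 3 males) and WT mice on the control diet (3 females, 3 males). The chips were cut from the shafts of long bones after the marrow had been flushed and surface cells digested away. Of 21402 genes in the table, 15059 autosomal genes reached 10 normalized counts in 2 or more of the 23 libraries, and these are the genes compared. X-linked and Y-linked genes were kept out of the comparison and served only to check the labels.

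When dietary calcium is short, parathyroid hormone rises and calcium is taken out of bone, both by osteoclasts, which dissolve bone from its surfaces, and by osteocytes, which can remove the matrix around themselves. Long bones also hold marrow, where neutrophils, lymphocytes and erythroid cells form, and marrow adipocytes, fat cells that store triglyceride in lipid droplets. Estrogen is a main regulator of bone turnover in both sexes. Bone chips carry RNA of all these cells, and in such bulk samples fewer cells of a type and less RNA per cell cannot be told apart.

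One of the females went against its label in part. Mouse 5 had 2499 normalized counts summed over the 4 Y-linked genes that passed the filter (*Ddx3y*, *Eif2s3y*, *Uty* and *Kdm5d*), and mouse 6 had 4.38. The KO males on the same diet had 7409, 6682 and 7461, and the other 10 females of the series, mouse 6 included, had between 0 and 28.7. Mouse 5 thus stood at 34.8% of the mean of the KO males, and at 29.5% to 41.2% for the single genes. *Xist*, the RNA that silences an X chromosome in female cells, was at 71440 in mouse 5 and 106611 in mouse 6, against 27.8, 17.4 and 40.8 in the KO males. The library labelled mouse 5 therefore held both *Xist* and Y-linked RNA. A fit without mouse 5, like one without mouse 6, leaves 1 KO female. Calls lost in such a fit therefore cannot be told from the loss of a mouse. Without mouse 5 the log2 difference of *Cidec* went from 4.17 to 4.39, and that of *Mvd* from -1.19 to -0.74. Differences thus grew at some genes and shrank at others. The part of this mixture in the results was not tested.

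**Figure D1:**
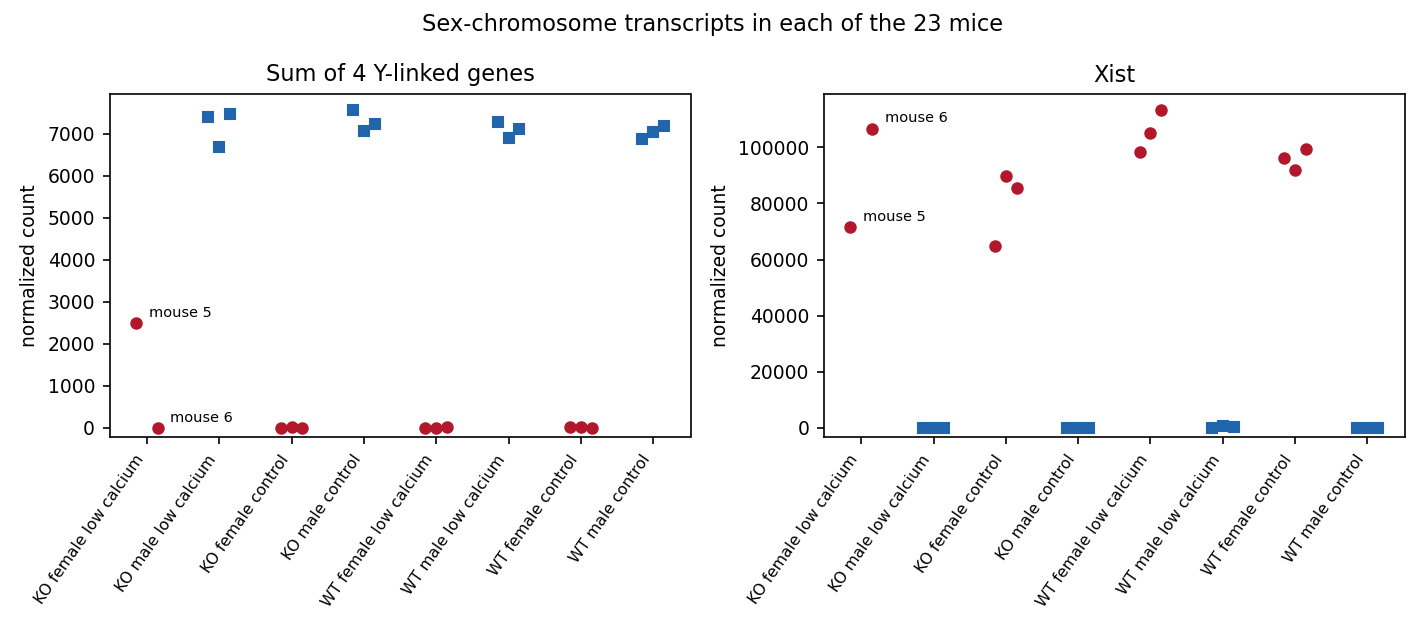
Normalized counts of the 4 Y-linked genes summed (left) and of *Xist* (right) in each mouse, by group, with females as red circles and males as blue squares. Mouse 5, a KO female on low calcium, lies at 2499 for the Y-linked genes, between the other females (at most 28.7) and the males (at least 6682).

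Recovered reads were 18366412 in mouse 5 and 23552692 in mouse 6, and from 22953177 to 27807078 in the 3 KO males. Most osteocyte and osteoblast markers were high in all 5 libraries (*Dmp1*, an osteocyte matrix protein, from 3136 to 12587 normalized counts). The osteocyte marker *Pdpn* was lower, from 97.9 to 183. Marrow markers were high too, with *Ngp* of neutrophils from 97905 to 211931 and *Slc4a1* of erythroid cells from 52633 to 91628. The hepatocyte markers *Alb*, *Apoa1* and *Fgb* were at most 5.57. KO male 29 stood apart from the other males. Its summed counts over 17 osteocyte genes were 26124, against 49279 and 47813 in KO males 12 and 31, and 46643 and 51456 in KO females 5 and 6. Its summed erythroid count was 223188, the largest of the 5 mice. *Fndc5* itself was near the floor everywhere. It had 12.4 and 1.75 normalized counts in KO females 5 and 6, against 2.69, 0.789 and 0 in the KO males. On the control diet it was at most 0.602 in KO females and 0 in KO males. Mouse 5, the library with Y-linked RNA, was thus the highest of the KO mice. WT libraries ran from 0 to 17.8, so the level of a single library does not check its genotype label. Whether the *Fndc5* reads of mouse 5 came with its Y-linked RNA was not tested.

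The genes with the greatest rises in KO females included those of lipid-droplet proteins and one estrogen-induced gene. For 4 of these, the 250 bases before a transcript start in the RefSeq promoter table are shown so that the promoters of genes that moved together can be read side by side. They are *Cidec* (chr6:113435761-113436010, minus strand), *Cfd* (chr10:79890603-79890852, plus strand), *Plin1* (chr7:79732777-79733026, minus strand) and *Greb1* (chr12:16800887-16801136, minus strand), from RefSeq on build GRCm38.p6, 5′ to 3′ on the strand of the gene. RefSeq gene spans do not begin at each of these starts. That of *Greb1* (16670615 to 16801394) takes in the whole window, and that of *Plin1* (79721164 to 79732904) takes in the part of its window nearest the start. Capitals mark the letters AGGTCA, the half-site that estrogen receptors and several other nuclear receptors bind, or TGACCT, the same site read on the opposite strand.
Cidec: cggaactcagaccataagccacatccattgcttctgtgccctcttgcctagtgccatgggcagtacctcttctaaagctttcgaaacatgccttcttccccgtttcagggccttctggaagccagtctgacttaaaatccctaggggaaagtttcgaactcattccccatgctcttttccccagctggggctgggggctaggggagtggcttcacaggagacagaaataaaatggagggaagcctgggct
Cfd: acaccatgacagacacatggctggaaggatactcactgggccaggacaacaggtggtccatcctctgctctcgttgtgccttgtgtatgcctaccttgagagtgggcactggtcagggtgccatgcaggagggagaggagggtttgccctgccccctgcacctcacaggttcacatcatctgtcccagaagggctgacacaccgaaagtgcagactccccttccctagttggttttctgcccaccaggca
Plin1: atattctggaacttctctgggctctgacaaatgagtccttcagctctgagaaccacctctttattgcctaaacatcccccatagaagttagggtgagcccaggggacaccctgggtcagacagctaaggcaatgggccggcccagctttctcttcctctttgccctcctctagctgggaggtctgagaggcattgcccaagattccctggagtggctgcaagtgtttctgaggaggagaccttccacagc
Greb1: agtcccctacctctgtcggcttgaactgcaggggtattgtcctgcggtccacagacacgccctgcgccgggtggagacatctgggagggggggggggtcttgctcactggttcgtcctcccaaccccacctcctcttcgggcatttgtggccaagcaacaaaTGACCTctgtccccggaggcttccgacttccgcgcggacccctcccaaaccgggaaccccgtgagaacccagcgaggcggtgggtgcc
The half-site was found once in the *Greb1* window, its first base 88 bases before the start, and in none of the windows of *Cidec*, *Cfd* and *Plin1*. Of all 32851 RefSeq windows of this length, 14% held it on either strand, so the match is a description of the letters only.

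In all, 162 autosomal genes were higher and 225 were lower in KO females than in KO males at an adjusted p under 0.05 (limma moderated test), which is 1.08% and 1.49% of the genes tested. The rises were larger than the falls. The median log2 difference was 0.95 among genes called higher and -0.46 among genes called lower, and 74 of the rises but only 6 of the falls passed 2-fold. The KO females did not overlap the KO males in any of the 387 genes. Over all autosomal genes, females lay above males without overlap in 19% and below them in 21.6%, so that a lack of overlap among 2 against 3 mice is common in these data.

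The number of calls rested on single libraries. Without mouse 5, 8 genes were called higher and 8 lower (0.0531% of genes in each direction). Without mouse 6, limma called 0 higher (0%), where 729 had an unadjusted p under 0.05, and 3 lower (0.0199%). Without KO male 29, 38 were higher (0.252%) and 19 lower (0.126%). Leaving out KO male 12 gave 288 higher and 259 lower, and leaving out KO male 31 gave 113 and 178. The direction of the 387 differences was the same in each of these 5 fits. Because the 2 groups did not overlap at these genes, leaving out a mouse could not have changed it. When the 2 groups were fitted alone, with no other group to share the estimate of spread, 0 genes were called by limma, though 2584 had an unadjusted p under 0.05 and DESeq2 called 339 higher and 299 lower. With the marker levels of muscle, neutrophils and erythroid cells as covariates 3 were higher and 2 lower. Quantile normalization gave 108 higher and 88 lower genes, so that 55.1% of its calls were rises, against 41.9% with the deposited scaling. The study's thresholds (an unadjusted p under 0.01 and a log2 difference over 1) took 207 genes higher and 20 lower in limma, and 198 and 15 in DESeq2 on the 2 groups alone, so that 91.2% and 93% were rises.

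Mouse 5 lay nearer to the males than mouse 6 did at most called genes. It was below mouse 6 at 133 of the 162 genes called higher in females (82.1%) and above it at 171 of the 225 called lower (76%), while over all autosomal genes it was below mouse 6 at 50.1%. These genes were called from mice 5 and 6 together, so the distances that follow were shaped by that choice. At genes called higher the median log2 difference from the mean of the KO males was 0.88 in mouse 5 and 1.02 in mouse 6, and at genes called lower it was -0.43 in mouse 5 and -0.49 in mouse 6.

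Genes of fat cells were the group with the most calls among 34 lists. Of 17 adipocyte genes tested, 9 were higher in KO females and 0 were lower, with a median log2 difference of 1.18, against -0.003 over all autosomal genes. KO females lay above KO males without overlap in 15 of the 17. Over all autosomal genes, 1.08% were called higher, 1.49% were called lower and 19% lay above without overlap. These shares are the background for each list below. *Cidec*, which drives the fusion of lipid droplets, had 191 and 257 normalized counts in the KO females, against 19.7, 15 and 4.64 in the KO males. It was 4.17 ± 0.71 higher on the log2 scale (SE, adjusted p = 0.00918, limma). *Cfd* (adipsin), a protease of complement secreted by adipocytes, had 1223 and 1820 in the KO females and 166, 67.9 and 69.6 in the KO males, a 16-fold difference (SE 0.63 on the log2 scale, adjusted p = 0.00602, limma). In both, the lower female lay well above the highest male.

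Coat proteins of the lipid droplet followed the same order of mice. *Plin1* had 227 and 298 normalized counts in KO females, against 37.6, 29.2 and 11.1 in KO males. *Plin4* had 328 and 522 in KO females, against 66.3, 35.5 and 30.6 in KO males. Mouse 6 was the highest and mouse 5 the next in each. *Pck1*, which feeds the synthesis of glycerol for triglycerides as well as glucose, rose by 3.28 ± 0.71 (log2, SE, adjusted p = 0.0247, limma). The fatty-acid carrier *Fabp4* had 3714 and 4704 normalized counts in KO females and 1885, 1529 and 1153 in KO males. The hormone gene *Adipoq*, for adiponectin, had 1291 and 1820 in KO females and 591, 650 and 487 in KO males, a rise of 1.42 ± 0.25 (log2, SE, adjusted p = 0.0117, limma). *Lpl*, the lipase that releases fatty acids from lipoproteins, rose by 1.18, and *Pparg*, the master transcription factor of adipocytes, by 0.63 (log2, adjusted p = 0.0178 and 0.0333, limma). *Retn* (resistin) did not pass, with 23.6 and 41.1 in KO females against 2.69, 4.74 and 13.9 in KO males (adjusted p = 0.0551, limma). *Adipoq*, *Lpl*, *Pparg* and *Retn* are members of the list that fell outside the rule for named genes and were chosen after their values were seen.

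Further genes of fat metabolism were among the greatest rises. *Lgals12*, a galectin of lipid droplets, had 62.9 and 70.0 normalized counts in KO females, against 3.58, 4.74 and 5.57 in KO males. *Pnpla3*, a lipid-droplet hydrolase, rose by 3.39 ± 0.80, and *Klb*, the co-receptor through which FGF21 acts on fat and liver, by 2.90 ± 0.77 (log2, SE, adjusted p = 0.0317 and 0.0461, limma). *Scd1*, which makes monounsaturated fatty acids, had 22419 and 32701 in KO females, against 6957, 4306 and 3436 in KO males. The list of fatty acid and cholesterol synthesis did not move with it. Of its 24 genes only *Scd1* was higher and only *Mvd* was lower, and the median log2 difference was -0.25. Chosen after their values were seen, *Thrsp*, *Mlxipl*, *Aqp7* and *Gpd1* were also called higher, by 2.45, 2.25, 2.23 and 2.13 on the log2 scale. *Mlxipl* encodes a glucose-sensing activator of lipogenic genes, *Aqp7* the glycerol channel of adipocytes and *Gpd1* an enzyme of glycerol phosphate synthesis. *Cyp2f2*, a cytochrome P450 best known from the airway, and *Glb1l2* were also among the 12 largest rises, at 3.61 and 3.53 on the log2 scale.

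The adipocyte result held its size with each mouse left out, though not its calls. The list median was 1.34 without mouse 5 and 1.02 without mouse 6, and between 1.11 and 1.23 without single males. Of the 17 genes, 4 were called without mouse 5 (*Cfd*, *Plin4*, *Fabp4* and *Adipoq*), 0 without mouse 6 and 8 without KO male 29. Other tissue markers moved in the same mice. Summed counts over 23 skeletal muscle genes were 1809 and 1416 in KO females, against 1101, 709 and 1325 in KO males, with 0 of 23 called. In contrast, 18 neutrophil genes summed to 341015 and 301412 in KO females, against 474122, 587671 and 537821 in KO males. With the marker levels of muscle, neutrophils and erythroid cells as covariates, none of the adipocyte genes named here was called, while the list median was 1.08 and the log2 differences of *Cidec*, *Cfd* and *Plin4* were 4.03, 3.40 and 2.97.

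**Figure D2:**
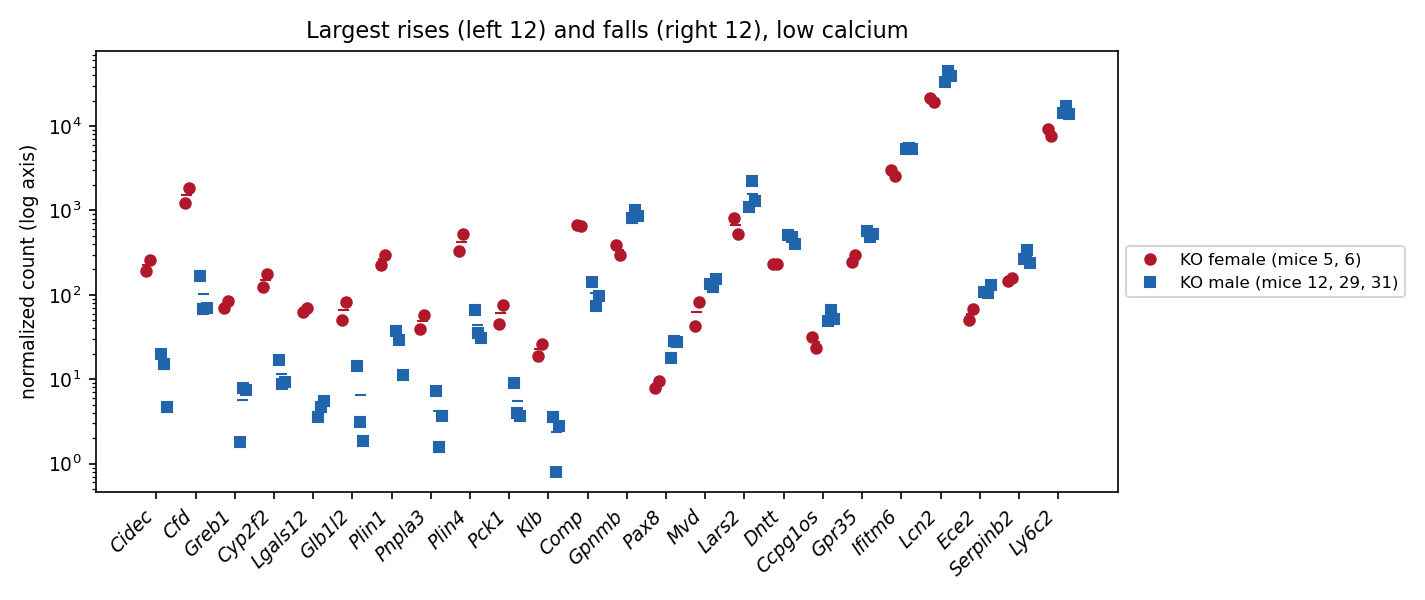
Normalized counts (log axis) of the 12 largest rises (left) and 12 largest falls (right) that met the rule for named genes, with KO females as red circles left of KO males as blue squares and a short line at each mean. The 2 groups are apart at every gene shown, by more at the rises, where *Cidec* lies at 191 and 257 in females against at most 19.7 in males, than at the falls.

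Among 14 genes of sex hormone signalling, 3 rose and 0 fell, against 1.08% and 1.49% of all autosomal genes. The median log2 difference was 0.25, and 0.43 without mouse 5 and 0.04 without mouse 6. *Greb1*, a cofactor of the estrogen receptor that estrogen itself induces, had 69.6 and 84.0 normalized counts in KO females, against 1.79, 7.89 and 7.42 in KO males, a difference of 3.71 ± 0.61 (log2, SE, adjusted p = 0.00749, limma). Without mouse 5 it was 3.84 (adjusted p = 0.0578, limma). *Aldh1a2*, which makes retinoic acid, had 370 and 529 in KO females and 140, 67.9 and 143 in KO males. *Zbtb16*, a transcription factor gene induced by glucocorticoids and androgens, rose by 1.12 ± 0.28 (log2, SE, adjusted p = 0.0389, limma). *Pgr*, the progesterone receptor, had 26.95 and 16.6 in KO females, against 4.48, 14.2 and 2.78 in KO males, and did not pass (adjusted p = 0.116, limma).

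Of 27 osteoclast and resorption genes, 1 was called higher in KO females and 0 were called lower. The log2 difference was positive in 23 of the 27. Its median was 0.28, and 0.45 without mouse 5, 0.18 without mouse 6 and 0.15 without KO male 29. KO females lay above KO males without overlap in 11 and below them in 0, against 19% and 21.6% of all autosomal genes. The summed level was 116579 and 128222 in KO females, against 111015, 106764 and 92526 in KO males. The gene called was *Calcr*, the calcitonin receptor through which osteoclasts are restrained. It had 40.4 and 80.5 normalized counts in KO females, against 4.48, 18.1 and 7.42 in KO males, a rise of 2.60 ± 0.48 (log2, SE, adjusted p = 0.0131, limma) that was also called without mouse 5. The collagenase gene *Mmp13* had 14128 and 17879 in KO females, against 8475, 6442 and 5388 in KO males, and missed the threshold (log2 difference 1.26 ± 0.41, SE, adjusted p = 0.0882, limma). *Ctsk*, the main protease of bone collagen, did not overlap between the sexes but did not pass, with 8612 and 11387 in KO females against 7428, 4338 and 4194 in KO males (adjusted p = 0.222, limma). *Acp5* and *Oscar* overlapped between the sexes, with log2 differences of 0.47 ± 0.33 and 0.55 ± 0.36 (SE). *Dcstamp*, which osteoclast precursors need in order to fuse, had a difference of 1.03 ± 0.52 (SE, adjusted p = 0.253, limma). *Tnfsf11*, which encodes RANKL, had 219 and 242 in KO females against 236, 174 and 198 in KO males, and *Mst1r* had 218 and 256 against 167, 105 and 122 (adjusted p = 0.773 and 0.0954, limma).

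Bone-forming genes gave no call. Of 26 genes of bone formation and mineralization, 0 passed in either direction, with a median log2 difference of 0.14 that turned to -0.14 without KO male 29. The summed level was 575827 and 566511 in KO females, against 874702, 494478 and 798214 in KO males, so the females lay between male 29 and the other males. The osteocyte list of 17 genes had 13 positive differences and a median of 0.73, which was 0.20 without KO male 29. Females lay above males without overlap in 6 of the 17, against 19% of all autosomal genes. Its only call was *Podnl1*, for a leucine-rich matrix protein, and without KO male 12 it had 5. *Podnl1* was higher, with 358 and 349 in KO females against 228, 172 and 206 in KO males. *Sost*, the gene of sclerostin, which osteocytes release to restrain bone formation, had 6763 and 7801 in KO females, against 5130, 1507 and 3407 in KO males (log2 difference 1.29 ± 0.43, SE, adjusted p = 0.0952, limma). *Dkk1*, another inhibitor of Wnt signalling, had a difference of 1.12 ± 0.35 (log2, SE, adjusted p = 0.0819, limma). In both, male 29 was the lowest of the 5 mice.

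A few matrix genes were higher in KO females. Of 31 collagen chains, 2 rose and 0 fell. They were *Col8a2*, a network-forming collagen, with 52.8 and 46.4 normalized counts in KO females against 17.9, 7.89 and 10.2 in KO males, and *Col5a3*, with 601 and 682 against 333, 338 and 270. *Col2a1*, the collagen of cartilage, had 5647 and 7061 in KO females and 3722, 2580 and 2964 in KO males, and narrowly missed the threshold (log2 difference 1.05 ± 0.30, SE, adjusted p = 0.0588, limma). *Comp*, a protein of cartilage and tendon matrix, had 665 and 651 in KO females against 142, 74.2 and 96.5 in KO males. It was the only call in the chondrocyte list of 18 genes and in the list of 17 periosteum and tendon genes, whose summed level was 45334 and 49256 in KO females, against 41393, 21275 and 32971 in KO males. *Adamts6* rose and *Mmp25*, a neutrophil metalloproteinase, fell, which were the calls among 25 matrix proteases and inhibitors.

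Signalling genes with a call were few and mostly higher in KO females. *Igfbp5*, for an IGF-binding protein stored in bone matrix, had 11916 and 13532 normalized counts in KO females, against 7081, 6521 and 5439 in KO males, a rise of 1.01 ± 0.17 (log2, SE, adjusted p = 0.00844, limma). *Sfrp2*, an extracellular modulator of Wnt signals, had 108 and 102 in KO females against 45.7, 7.10 and 11.1 in KO males, and was the only one of 32 Wnt pathway genes called. *Bmp6* and *Ltbp2*, which binds fibrillin in the matrix, were the 2 of 30 TGF-beta and BMP pathway genes called, with rises of 0.84 and 0.63 (log2). Of 18 circadian clock genes, the output factor *Tef* rose by 0.69, and of 21 interferon-induced genes *Rsad2*, an antiviral enzyme, rose by 0.55.

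Endothelial genes leaned the same way. Of 18 tested, 2 were higher and 0 lower, and KO females lay above KO males without overlap in 16, against 19% of all autosomal genes. The median log2 difference was 0.50, and 0.54 without mouse 5, 0.44 without mouse 6 and 0.36 without KO male 29. With the marker levels of muscle, neutrophils and erythroid cells as covariates, the list median was -0.002. *Stab2*, the hyaluronan scavenger receptor of sinusoidal endothelium, had 3229 and 3603 in KO females, against 2111, 1563 and 1737 in KO males. *Robo4*, a guidance receptor of endothelium, rose by 0.77 ± 0.20 (log2, SE, adjusted p = 0.0455, limma), and *Tek*, the angiopoietin receptor, had a difference of 0.68 (adjusted p = 0.0541, limma). *Esm1*, a proteoglycan secreted by sprouting endothelium, was outside this list and the rule for named genes and was chosen after its values were seen. It had 767 and 828 in KO females against 369, 491 and 358 in KO males. Among the 12 alternatives that kept the other groups in the fit, it was called in 11, all but the one without mouse 6. Among the clustered gamma protocadherins, a group noticed after the values were seen, 8 of 22 genes were called higher and 0 lower, against 1.08% and 1.49% of all autosomal genes. Their median log2 difference was 0.97, and 0.55 without KO male 29. These genes share their last exons, so reads cannot be fully told apart between them.

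**Figure D3:**
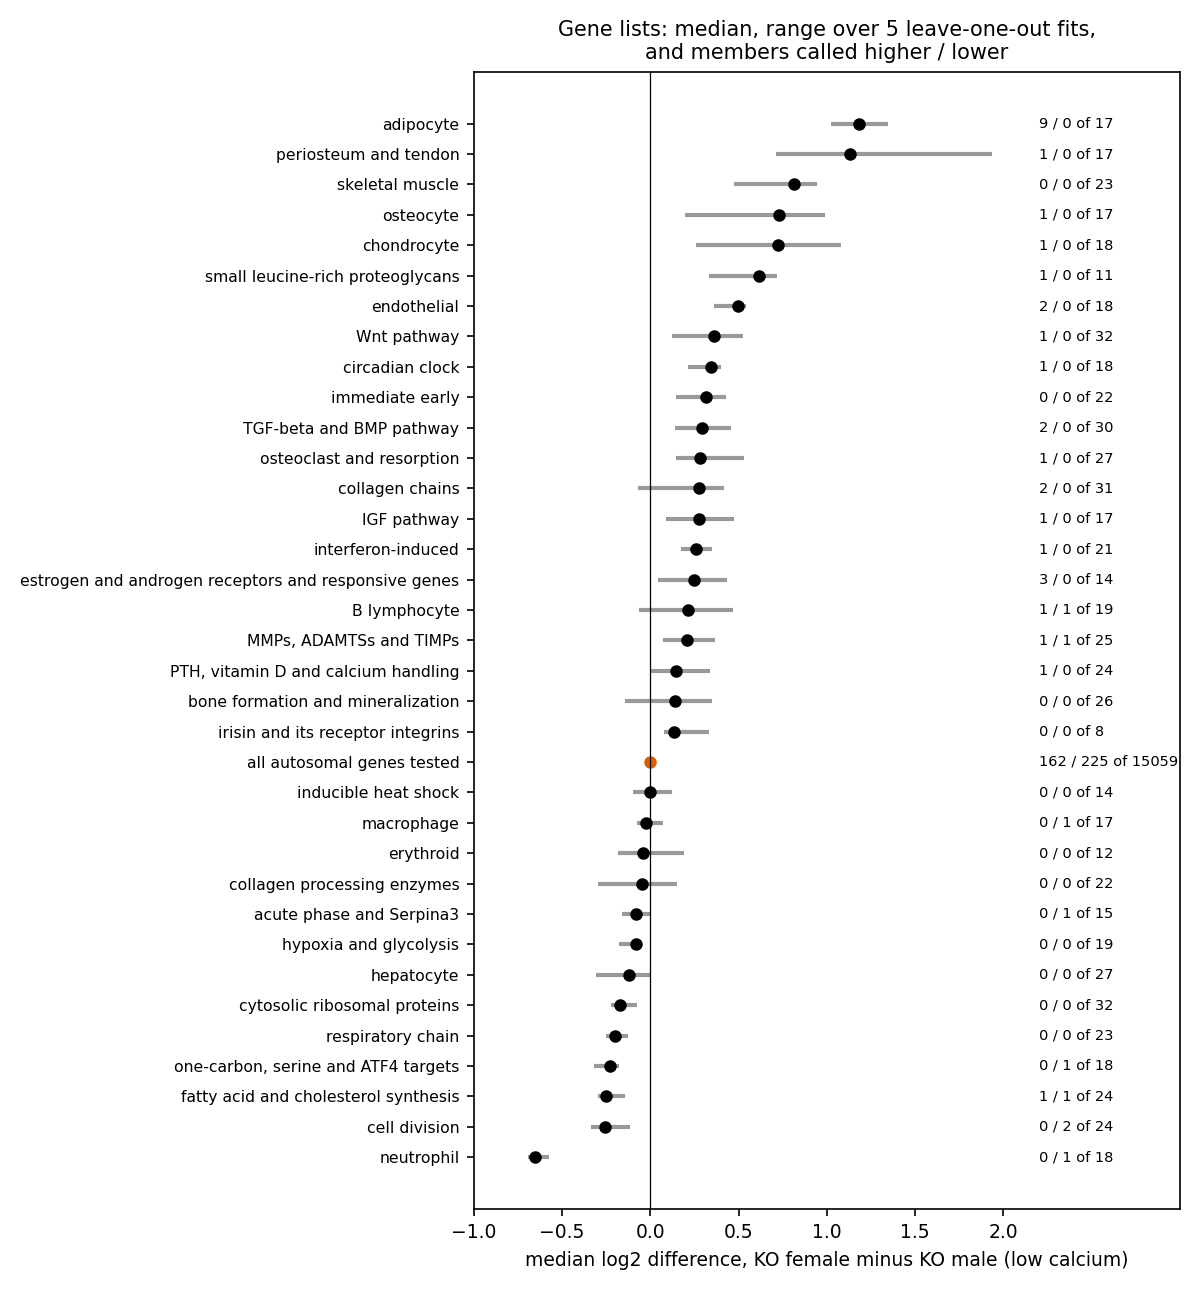
Median log2 difference between KO females and KO males on low calcium for each of 34 gene lists and for all autosomal genes (orange). Grey bars span the medians of the 5 fits that each leave out one mouse, and the numbers at the right give members called higher / lower of those tested. The adipocyte list lies at 1.18 with 9 of 17 called higher, and the neutrophil list lies lowest, at -0.65.

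The falls in KO females were smaller. All 18 neutrophil genes tested lay lower in both KO females than in every KO male, against 21.6% of all autosomal genes. Their median log2 difference was -0.65, but only *Lcn2* passed the threshold. *Lcn2*, an iron-scavenging protein of neutrophil granules, had 21167 and 19286 normalized counts in KO females, against 32732, 44961 and 39482 in KO males (log2 difference -0.94 ± 0.24, SE, adjusted p = 0.0429, limma). *Ly6c2*, a surface marker of monocytes, had 9194 and 7661 in KO females against 14300, 17124 and 14039 in KO males. *Ifitm6* had 2980 and 2529 in KO females against 5279, 5413 and 5311 in KO males, and *Mmp25* had 1213 and 1098 against 1846, 1910 and 1959. In each of these, mouse 5 was the higher of the 2 females.

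*Gpnmb*, a glycoprotein of macrophages, osteoclasts and osteoblasts, had the largest fall under the rule. It had 385 and 298 normalized counts in KO females, against 819, 997 and 864 in KO males, a difference of -1.39 ± 0.28 (log2, SE, adjusted p = 0.0199, limma), and of -1.58 without mouse 5 (adjusted p = 0.0803, limma). It was the only one of 17 macrophage genes called, and the median of that list was -0.02. *Gpr35*, a G protein-coupled receptor of immune cells and gut, had 241 and 292 in KO females against 568, 481 and 530 in KO males (log2 difference -0.98 ± 0.15, SE, adjusted p = 0.0055, limma), and was the only named gene still called without mouse 6, though not without mouse 5. *Dntt*, which adds bases at the joints of antigen receptor genes in early lymphocytes, had 229 and 231 in KO females against 504, 489 and 395 in KO males. *Cd22*, of later B cells, rose by 0.77 (log2), so the 2 calls among 19 B lymphocyte genes went opposite ways. *Serpinb2*, an inhibitor of plasminogen activators, fell by 0.86 (log2, adjusted p = 0.0247, limma).

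Other falls were in metabolism and cell division. *Mvd*, of the mevalonate pathway to cholesterol, had 42.7 and 81.4 in KO females against 133, 123 and 155 in KO males, and the females differed from each other by nearly as much as mouse 6 did from the lowest male. *Shmt2*, the mitochondrial enzyme that takes one-carbon units from serine, fell by 0.54 ± 0.11 (log2, SE, adjusted p = 0.0199, limma). *Lars2*, the mitochondrial leucyl-tRNA synthetase, had 810 and 530 in KO females against 1094, 2249 and 1291 in KO males. Of 24 cell division genes, *Plk1* and *Kif20a*, of mitosis, fell by 0.57 and 0.43. In 16 of the 24 both females lay below every male, against 21.6% of all autosomal genes. That list had a median of -0.26, and of -0.12 without KO male 29. *Pax8*, *Ece2* and the antisense gene *Ccpg1os* completed the 12 largest falls, at -1.38, -0.94 and -0.99 (log2).

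The same contrast of females with males was then read in the other 18 mice, which took no part in choosing the 387 genes other than through the shared spread and filter. In WT mice on low calcium, 2584 autosomal genes were higher and 2231 lower in females (17.2% and 14.8%). The WT females of that group had 7217601 to 18606399 recovered reads. The study reported low mapping percentages for these females. It proposes bacterial contamination as a possible reason, by which some genes may read too high. The part of this in the sex differences of WT mice on low calcium was not tested. In KO mice on the control diet 266 were higher and 320 lower (1.77% and 2.12%), and in WT mice on the control diet 156 and 121 (1.04% and 0.804%). Of the 162 genes higher in KO females on low calcium, 158 were positive in WT mice on low calcium, 138 in KO mice on the control diet and 150 in WT mice on the control diet (97.5%, 85.2% and 92.6%). Over all autosomal genes the shares were 50.6%, 52.1% and 49.1%. Calls were fewer, at 121, 26 and 18 of the 162. Of the 225 lower genes, 204, 169 and 209 were negative (90.7%, 75.1% and 92.9%), and 143, 10 and 4 were called lower.

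Few genes were called in the same direction in all 4 combinations of genotype and diet. They were 9 of the genes higher in females (*Aldh1a2*, *Cacna1e*, *Esm1*, *Greb1*, *Greb1l*, *Igfbp5*, *Ltbp2*, *Nav3* and *Tef*) and 1 lower (*Gpnmb*). *Cacna1e*, *Greb1l* and *Nav3* were likewise outside the rule. *Greb1* averaged 76.8 ± 10.2 normalized counts in KO females on low calcium (SD, n = 2) and 5.70 ± 3.39 in KO males on low calcium (SD, n = 3). On the control diet it averaged 164 ± 177 in KO females and 14.6 ± 1.69 in KO males (SD, n = 3 each). *Gpnmb* averaged 341 ± 61.9 in KO females (SD, n = 2) and 893 ± 92.5 in KO males on low calcium (SD, n = 3). In WT mice on low calcium it averaged 90.8 ± 28.3 in females and 699 ± 18.9 in males (SD, n = 3 each).

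The adipocyte genes differed less evenly across the series. Their median log2 difference between females and males was 1.03 in WT mice on low calcium (8 of 17 called higher, 1 lower), 0.60 in KO mice on the control diet (5 higher, 1 lower) and 0.04 in WT mice on the control diet (0 called). Summed adipocyte counts were 29738 and 34394 in KO females against 20535, 20709 and 18917 in KO males on low calcium. In WT mice on low calcium they were 34744, 26274 and 27939 in females against 20469, 22179 and 21293 in males, also without overlap. On the control diet they were 20596, 20633 and 28001 in KO females against 18797, 18474 and 17670 in KO males. In WT mice on the control diet they were 26220, 24152 and 28350 in females against 24091, 30165 and 21260 in males. Only WT male 24, at 30165, overlapped those females. Its hepatocyte genes summed to 38256, against 7419 and 5987 in WT males 7 and 25, and their part in the adipocyte values was not tested. *Cidec* averaged 224 ± 46.4 in KO females (SD, n = 2) and 13.1 ± 7.71 in KO males on low calcium (SD, n = 3), and 65.9 ± 41.4 in KO females and 15.1 ± 8.54 in KO males on the control diet (SD, n = 3 each). In WT mice on low calcium it averaged 109 ± 57.1 in females and 17.6 ± 4.53 in males (SD, n = 3 each).

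**Figure D4:**
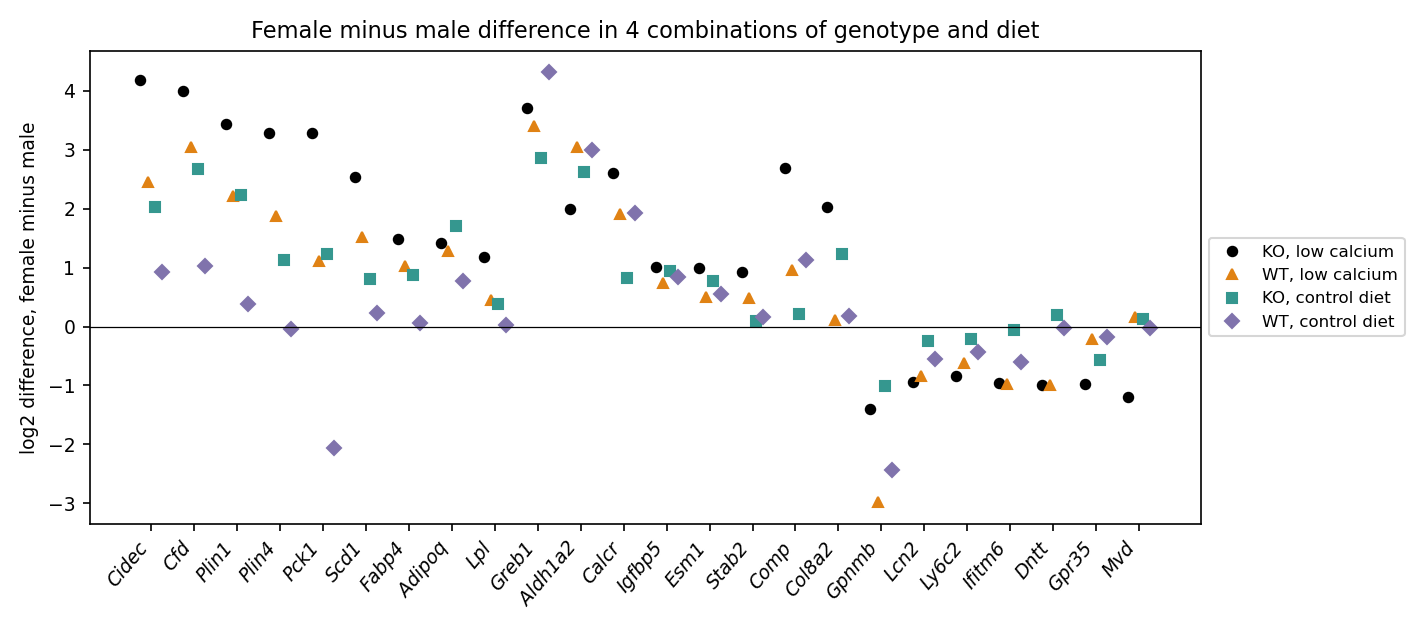
Log2 difference between females and males for 24 named genes in KO mice on low calcium (black circles), WT mice on low calcium (orange triangles), KO mice on the control diet (green squares) and WT mice on the control diet (purple diamonds). *Plin4*, *Pck1*, *Dntt* and *Mvd* change sign among the 4, and the other genes shown keep one sign in all 4. *Plin4* is at 3.28 in KO mice on low calcium and -0.04 in WT mice on the control diet.

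Whether the sex difference itself differed between genotypes or between diets was tested with interaction contrasts. Between KO and WT mice on low calcium, 1 of 15059 genes passed (0.00664%), and 2029 had an unadjusted p under 0.05. That gene was *Tmem214*, which encodes a membrane protein of the endoplasmic reticulum. It had 938 and 912 normalized counts in KO females and 1212, 1078 and 1169 in KO males. In WT mice it averaged 1306 ± 68.5 in females and 1060 ± 11.7 in males (SD, n = 3 each). The difference of the sex differences was -0.62 ± 0.10 (log2, SE, adjusted p = 0.0462, limma), and of the fits that each left out 1 of these 11 mice, it was called only without KO male 29 or WT female 17. Between low calcium and control diet in KO mice, 0 genes passed in limma (0%) and 0 in edgeR, while 2051 had an unadjusted p under 0.05 in limma and 161 passed in DESeq2. For *Cidec* the sex difference was 2.15 ± 0.96 larger on low calcium than on the control diet, and for *Plin4* 2.16 ± 0.69 larger (log2, SE, adjusted p = 0.336 and 0.205, limma). Against WT mice on low calcium these interaction values were 1.72 ± 0.96 and 1.40 ± 0.69 (log2, SE, adjusted p = 0.442 and 0.378, limma). The larger adipocyte differences in KO mice on low calcium were therefore not shown to be particular to that genotype or diet.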

How the data were processed

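Total RNA of osteocyte-enriched bone chips from 23 mice in 8 groups was sequenced, 1 library per mouse. The values are a normalized signal per gene that the authors made before deposition. The authors ran FastQC 0.11.5, mapped reads to mm10 with STAR 2.7.10a, assigned them to genes by strand with featureCounts and divided by DESeq2 size factors. The authors left out 1 further KO female, of the control diet. Its share of reads on chromosome Y was like that of males, and its *Xist* was very low. Which gene annotation they used is not stated in the sources read for this work. Gene positions were matched by symbol to RefSeq and GENCODE tables of GRCm38. Every value was a whole read count divided by 1 factor of its library (100% of values whole within 0.01 reads), so recovered reads (7217601 to 33352631 per library) were used for edgeR and DESeq2.

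Genes with at least 10 normalized counts in at least 2 libraries were kept (15638, of which 15059 autosomal, 524 X-linked, 4 Y-linked and 51 unplaced). Log2 values with a pseudocount of 1 were modelled as 8 group means over all 23 libraries, which share the spread, in limma 3.58.1 under R 4.3.3 (lmFit, then eBayes with its trend option). Two-sided p-values were Benjamini-Hochberg adjusted across the 15638 genes, and an adjusted p under 0.05 was called. Fold changes are on the log2(value + 1) scale, which understates the change of low genes. Errors are standard errors of the fit or standard deviations between mice. With 2 mice against 3, an exact permutation test of a single value allows no p under 0.1, so none was run. On simulated data with 2 mice against 3, over 15391 genes, limma found 97 of 100 genes changed 4-fold and 74 of 100 changed 2-fold, and called 7 of 15191 unchanged genes. The simulated counts varied independently between genes, with no shift of many genes in 1 mouse and no mixed library. They check the fit and do not give the share of true or false calls in these data.

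The rule for named genes took, from called genes, the 12 greatest rises and 12 greatest falls with a mean of at least 20 in the higher group and no overlap (receptor segments, small RNAs, clones and predicted genes left out), up to 4 genes per list by adjusted p, the genes the study discusses for this comparison and for resorption, and genes past an interaction test. Some genes that met the rule are left unprinted. The lists and rules were chosen with earlier results of these data known. Other settings tried were quantile normalization, a pseudocount of 5, no filter, library quality weights, DESeq2 1.42.0, edgeR 4.0.16 with TMM scaling, marker covariates, the 2 groups alone, the study's thresholds (unadjusted p under 0.01 and a log2 difference over 1) and leaving out each mouse.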

Additional observations from a re-analysis of the deposited data

Results flagged for a closer look

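*Tmem214* differed between genotypes in its sex difference on low calcium, by -0.62 (log2), and was the only autosomal gene that passed that interaction test. Mouse 5, labelled a KO female on low calcium, held 2499 normalized counts of Y-linked genes, a signal outside the autosomal comparison and above the other females, which had at most 28.7.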

How the results depend on the processing

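The 387 calls between KO females and KO males on low calcium became 196 with quantile normalization, 1067 with DESeq2, 1486 with library quality weights, 5 with marker covariates and 0 with the 2 groups alone, and 3 to 547 with single mice left out. A pseudocount of 5, no filter and edgeR gave 396, 267 and 407. The study's thresholds gave 227 genes in limma and 213 in DESeq2 on the 2 groups alone, of which 80 and 78 were among the 387. The cause of these changes was not tested. All 387 kept their direction under every alternative fit. Since the 2 groups did not overlap at these genes, this was fixed in advance for the fits that left out a mouse. The single call of the interaction with genotype became 0 with quantile normalization and with marker covariates, 238 with DESeq2, 1796 with quality weights and 0 to 889 with single mice left out (889 without KO male 29, 643 without WT female 17). It became 1155 without WT females 16 and 17, an alternative chosen after seeing the data, as was counting list members without mouse 5. The interaction with diet gave 1 call with quantile normalization, 161 with DESeq2, 405 with quality weights and 0 to 56 with single mice left out (56 without KO male 29). Of 58 named genes that were called, 7 stayed called without mouse 5, 1 without mouse 6, 20 without KO male 29 and 3 with marker covariates. *Tnfsf11* turned to -0.25 (log2) with marker covariates. No paired analysis was possible because mouse numbers are not shared between groups. The main limma p-values set each difference against a spread shared by all 23 libraries, most of them outside the 2 groups. They do not measure the spread of the 2 and 3 mice compared alone, and these mice are few.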
